A study of Mus musculus with 16 samples.

Results

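The comparison of BMP4 with FGF2 in co-cultures of mouse embryonic stem (ES) cells and PA6 stromal cells asked which fates part the factors from each other, where each factor is more often set against cultures without growth factors. It took 5 of the 16 arrays of the series, 2 BMP4 co-cultures and 3 FGF2 co-cultures. Its members were the probes called present (detection p below 0.05) on every array of at least 1 of these groups, 18930 of the 45281 probes of the table. Of the 14829 genes tested across the whole series, 13566 were represented by such a probe. The ES cells, a line with EGFP knocked in under the tau (MAPT) promoter, grew for 7 days on PA6 monolayers, a mouse bone marrow stromal line, in serum-free medium. FGF2 was given at 20 ng/ml and BMP4 at 10 ng/ml per the labels, and per the study's methods, which name a lower BMP4 dose, the factors were present for the first 3 days and then left out. Co-cultures with neither factor (-GFs, 2 arrays) and PA6 cells grown alone with the same additions (9 arrays, 3 for each condition) served as references. All groups therefore shared the stromal line, the medium and the day of harvest, and every co-culture array held RNA of ES progeny and of stroma together.

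On PA6 cells in serum-free medium ES cells turn mainly to neural fates. BMP4 is known to divert ectoderm from the neural to the epidermal fate by way of SMAD1 and SMAD5, whereas FGF2 acts through receptor tyrosine kinases and the ERK pathway and is best known in this setting for the maintenance of neural progenitors. Surface ectoderm that stratifies switches from the simple keratins KRT8 and KRT18 to KRT14 and KRT15 under the transcription factor p63, which is the product of Trp63.

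Levels below are log2 normalized intensities, and a difference is BMP4 minus FGF2 on that scale with its standard error (SE) from limma, fitted over the 7 co-culture arrays. A gene was called where the Benjamini-Hochberg adjusted p over all genes tested was below 0.1 and the difference exceeded 1 in size, that is, 2-fold. Between 18487 and 21261 probes were present on each of the 5 arrays. The BMP4 arrays correlated with each other at 0.979 over genes, the FGF2 arrays at 0.973 to 0.980, and arrays of different factors at 0.952 to 0.973. The typical SD of a gene within a group was 0.18 for BMP4 and 0.25 for FGF2. BMP4 array 2 stood apart in adipocyte genes: the mean level of the 7 members of the adipocyte list was 8.78 on BMP4 array 1 and 10.48 on array 2, against 7.77 to 8.18 on the FGF2 arrays and 7.79 to 8.90 on the -GFs arrays. ADIPOQ, the hormone adiponectin, read 7.91 and 12.53 with BMP4 and 5.64 to 6.21 with FGF2, where no array detected it (at least 13.4-fold higher, adjusted p = 0.207), and in PA6 cells alone the same contrast was 6.09 ± 1.42 (SE). Its part in the results was not tested, and lost calls and the widest moves of list medians on leaving out 1 array are given below with the array named.

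Of the genes tested, 214 were called, 112 higher with BMP4 (0.755% of the genes tested) and 102 lower (0.688%), and all 214 were members. Of these, 60 differed by more than 4-fold, 38 upward and 22 downward with BMP4, and the median difference over all genes was 0.04. The arrays of BMP4 and FGF2 did not overlap for any of the 214, which the call nearly requires, nor for 31.4% of all genes tested. The calls were thin. Each of the 7 co-culture arrays was left out in turn. The omissions of either -GFs array are 1 and the same fit, and they cannot move a difference between the factors, so they bear on the call alone. All 214 kept their direction, and 178 stayed beyond 2-fold, when any 1 of the 7 arrays was left out, but 25 genes (22 higher, 3 lower) also kept the call each time. Without BMP4 array 2, 39 genes were called, and without FGF2 array 1, 2 or 3, 63, 50 and 58. A block for the replicate number of the labels left 11 calls, and a block for the runs in which the columns of the table are ordered, which put BMP4 array 1 beside FGF2 array 2 and BMP4 array 2 beside FGF2 array 3, gave 560. Under median scaling in place of quantile normalization the median of all genes moved to 0.29 and 314 of 494 calls were upward, against 112 of 214. Relative to that shift the lists described below kept their direction, except that of FGF ligands and receptors and the forebrain list of 1 gene, but the raw medians of the cell cycle, stress and muscle lists turned from negative to positive.

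**Figure D1:**
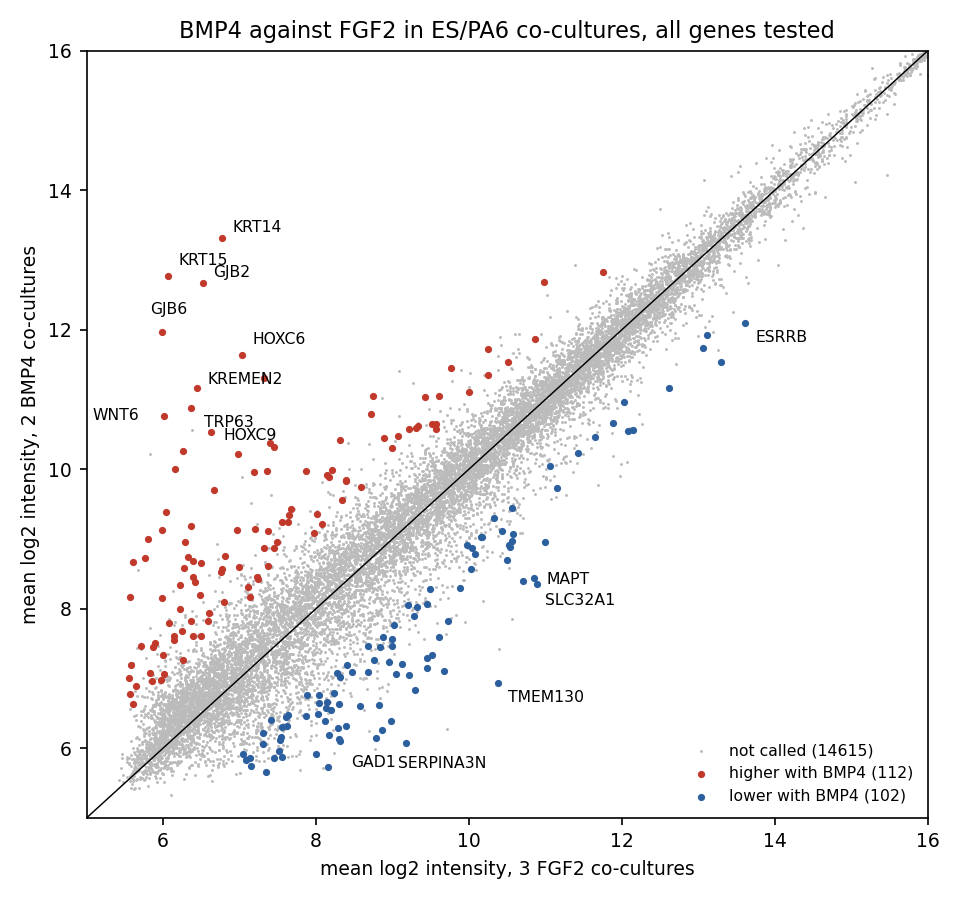
Mean log2 intensity of the 2 BMP4 co-cultures (vertical axis) against that of the 3 FGF2 co-cultures (horizontal axis) for the 14829 genes tested, with called genes in red (112 higher with BMP4) and blue (102 lower) and the line of equality. The genes farthest above the line, KRT14, KRT15, GJB2 and GJB6, lay near the bottom of the range with FGF2 and above 11 with BMP4.

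The largest fitted rises were those of KRT15, KRT14, GJB2 and GJB6, genes of stratified epithelium, followed by WNT6, KREMEN2, HOXC6 and TRP63. KRT15, a keratin of basal keratinocytes, read 13.13 and 12.42 with BMP4 and 5.95, 5.89 and 6.35 with FGF2, where it was detected on 1 of 3 arrays (difference 6.71 ± 0.30 SE, adjusted p = 0.000236, fitted on levels that were mostly at background with FGF2). KRT14, the basal layer keratin that pairs with KRT5, read 14.15 and 12.47 with BMP4 and 8.45, 5.60 and 6.26 with FGF2 (difference 6.54 ± 0.85, adjusted p = 0.037). The -GFs co-cultures lay with FGF2 for both keratins, at 6.22 and 6.83 for KRT15 and at 5.66 and 6.27 for KRT14. GJB2 and GJB6, connexins of epidermal gap junctions, went the same way. GJB2 read 12.60 and 12.73 with BMP4 and 6.36, 5.98 and 7.21 with FGF2, where 1 of 3 arrays detected it (difference 6.15 ± 0.37, adjusted p = 0.00171, fitted on levels mostly at background with FGF2). GJB6 read 11.97 and 11.95 with BMP4 and was not detected on any FGF2 array, so that it was at least 44.8-fold higher (adjusted p = 0.000113). TRP63 read 10.95 and 10.81 with BMP4 and 6.71, 5.75 and 6.63 with FGF2 (difference 4.51 ± 0.31, adjusted p = 0.00292). In each of these genes the lowest BMP4 array exceeded the highest FGF2 array by more than the whole spread of either group. KRT15, GJB2, GJB6 and TRP63 held their calls in all 7 omissions, whereas KRT14 lost it without FGF2 array 3 or either BMP4 array, with differences of 5.70 to 7.38 over the 7 omissions and adjusted p up to 0.110.

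**Figure D2:**
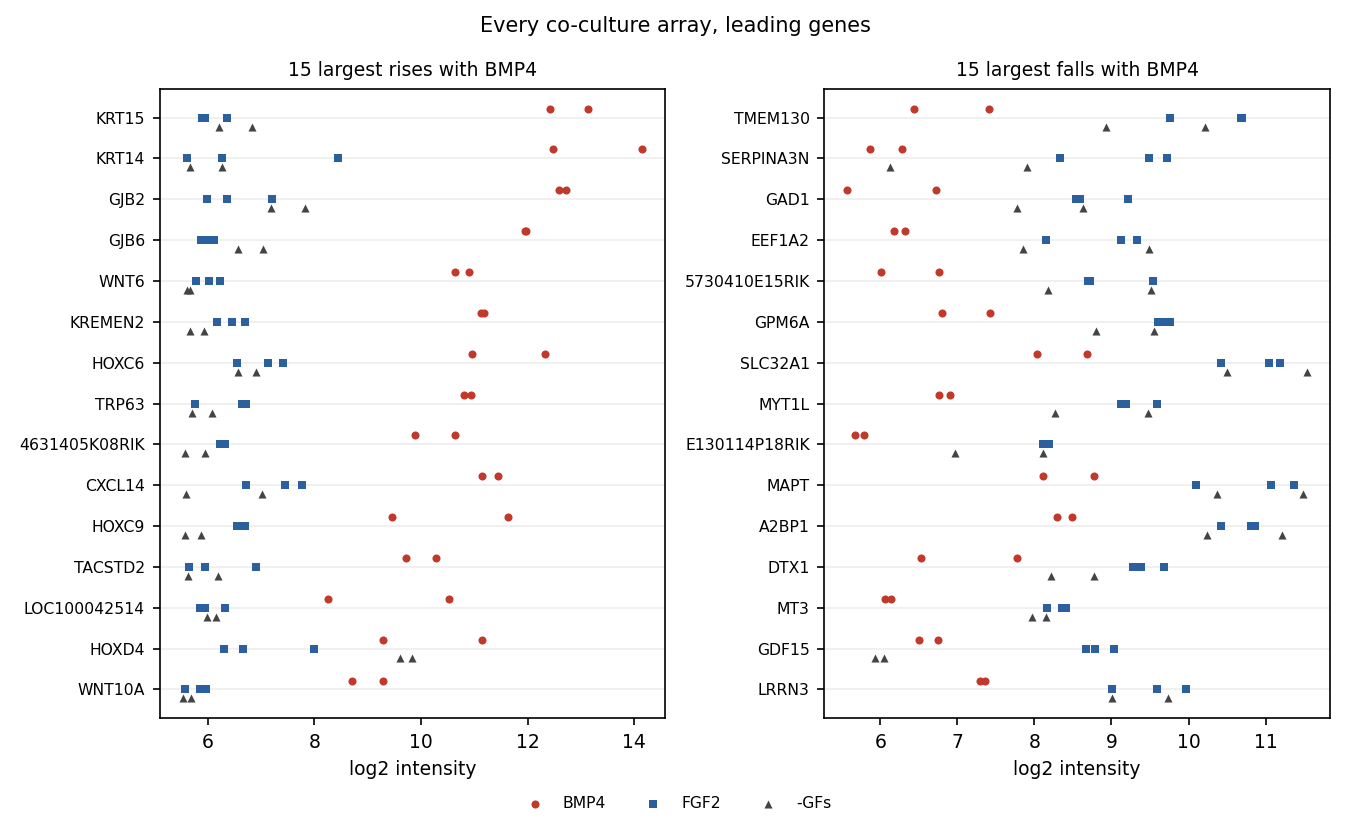
Log2 intensity on each of the 7 co-culture arrays (horizontal axis) of the 15 genes with the largest rise (left) and the 15 with the largest fall (right) with BMP4 against FGF2, with BMP4 as circles, FGF2 as squares and -GFs as triangles. BMP4 and FGF2 symbols do not overlap in any row, and the -GFs triangles sit with FGF2 for KRT15 and WNT6 but with BMP4 for HOXD4 and GDF15.

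The start regions of 3 genes that held their calls in all 7 omissions, an epidermal connexin (Gjb2), a WNT ligand (Wnt6) and a desmosome protein (Dsp), are shown because each holds the palindromic motif GCCNNNGGC bound by TFAP2 factors, which are known regulators of surface ectoderm. The sequences are RefSeq's (GRCm38.p6), 300 bases around the annotated start, 5′ to 3′ on the strand of the gene, with the motif in capitals.
Gjb2 (chr14:57104653-57104952, minus strand): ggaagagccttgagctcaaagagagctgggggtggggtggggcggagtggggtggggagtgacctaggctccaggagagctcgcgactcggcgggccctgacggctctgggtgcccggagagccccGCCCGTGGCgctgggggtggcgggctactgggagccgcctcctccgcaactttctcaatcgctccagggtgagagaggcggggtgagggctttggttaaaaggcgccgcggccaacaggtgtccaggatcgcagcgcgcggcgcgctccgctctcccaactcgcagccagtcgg
Wnt6 (chr1:74771642-74771941, plus strand): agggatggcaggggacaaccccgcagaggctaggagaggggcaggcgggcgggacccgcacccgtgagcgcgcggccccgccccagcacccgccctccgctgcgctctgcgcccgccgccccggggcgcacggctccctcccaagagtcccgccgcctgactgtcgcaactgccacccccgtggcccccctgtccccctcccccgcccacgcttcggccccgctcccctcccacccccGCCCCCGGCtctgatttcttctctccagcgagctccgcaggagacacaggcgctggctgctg
Dsp (chr13:38151044-38151343, plus strand): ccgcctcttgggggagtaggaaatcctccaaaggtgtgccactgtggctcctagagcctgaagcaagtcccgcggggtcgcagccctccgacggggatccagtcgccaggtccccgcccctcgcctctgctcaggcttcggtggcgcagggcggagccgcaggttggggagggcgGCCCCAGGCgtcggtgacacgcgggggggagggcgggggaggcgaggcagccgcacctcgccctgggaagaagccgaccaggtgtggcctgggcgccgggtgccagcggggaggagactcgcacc
Of the genes higher with BMP4, 73 of 112 were matched to the promoter table, and 28.6% of their 84 promoters held this motif, against 18.9% of 106 promoters of the genes lower with BMP4 and 16.6% of all 32851 promoters. The SMAD motif GGCGCC, a palindrome that can overlap the former, stood in 22.6%, 9.43% and 11.9% of the same sets. The LEF/TCF motif CTTTGAT, read on both strands, stood in 4.76%, 0.943% and 3.73%, and the octamer ATGCAAAT in 0%, 3.77% and 1.74%. Gjb2 and Dsp also hold the SMAD motif in this window. These shares are a description of the letters of the windows.

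Of 7 members of the list of stratified keratins and cornified envelope genes, KRT14 and KRT15 rose, none fell, and the median difference was 1.09 (0.71 without BMP4 array 1). That median is the fitted value of KRT5, which no FGF2 array detected, so it is no measured size. KRT5, KRT14 and KRT15 were not detected on every FGF2 array and became members through the BMP4 arrays, where they were high. KRT5, the usual partner of KRT14, read 7.13 and 6.36 with BMP4 and was not detected with FGF2 or without factors (at least 1.20-fold higher, adjusted p = 0.163). The differentiation keratin KRT1 and involucrin (IVL) were not members, that is, they were not detected on every array of either group. Of 5 simple epithelial keratins, KRT7, KRT8 and KRT18 rose, by 1.54, 1.69 and 1.40. KRT18 read 10.35 and 10.59 with BMP4, 9.11, 8.94 and 9.17 with FGF2 and 9.42 and 9.25 in -GFs co-cultures. Without BMP4 array 2 or FGF2 array 2 none of these 3 was called, and KRT8 lost the call in 6 of the 7 omissions (differences of 1.23 to 2.16).

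Among 15 factors of surface ectoderm, TRP63, GATA3 and DLX3 rose and none fell, with a median of 0.68 that was 0.36 without BMP4 array 2. DLX3, a homeobox factor of the epidermis, read 8.53 and 8.52 with BMP4 and 6.78, 6.68 and 6.80 with FGF2 (difference 1.78 ± 0.15, adjusted p = 0.00812), with -GFs co-cultures at 7.07 on each array. GATA3, which acts early in non-neural ectoderm, read 8.22 and 8.56 against 6.01, 6.73 and 6.53, and lost its call without FGF2 array 3 or BMP4 array 2 (differences of 1.76 to 2.14 over the omissions). TFAP2A, listed as TCFAP2A, gave a difference of 0.27 ± 0.25 (adjusted p = 0.712), and TFAP2C, listed as TCFAP2C, gave a difference of -0.24 ± 0.21 (adjusted p = 0.686) that turned positive under median scaling. TFAP2C stood above -GFs with each factor, by 2.02 with BMP4 (adjusted p = 0.013) and 2.25 with FGF2 (adjusted p = 0.00451), in contrasts that share the -GFs arrays. ELF3, an epithelial factor, had the opposite sign to TRP63 (difference -1.23 ± 0.47, adjusted p = 0.304), so that the members of this list did not share a direction.

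Junction and basement membrane genes rose in part. Of 21 members, 7 rose (CDH3, DSP, PKP3, LAMA3, COL17A1, ITGB6 and SFN), none fell, and the median was 0.61, which was 0.29 without BMP4 array 1 and 0.37 without FGF2 array 1. DSP, which ties keratins to desmosomes, read 8.72 and 8.57 with BMP4 and 6.41, 6.50 and 6.57 with FGF2 (difference 2.16 ± 0.16, adjusted p = 0.0039). On FGF2 arrays 1 and 2 DSP lay below the lowest detected signal (6.56 and 6.62), so the fit rests mostly on background there. COL17A1, the hemidesmosome collagen, read 9.31 and 8.96 against 6.59, 5.81 and 5.54, with a difference of 3.15 ± 0.32 (adjusted p = 0.0134). On FGF2 arrays 2 and 3 COL17A1 lay below the lowest detected signal (6.62 and 6.25), so this fit too rests mostly on background with FGF2. LAMA3, a chain of the laminin of hemidesmosomes, read 9.63 and 9.23 with BMP4, 7.52, 7.86 and 7.64 with FGF2 and 5.68 and 5.59 without factors, so that FGF2 lay between the other groups. SFN, the epithelial 14-3-3 protein, was at least 4.75-fold higher with BMP4 (adjusted p = 0.0227), since no FGF2 array detected it. DSP, COL17A1, LAMA3 and SFN held their calls in all 7 omissions, and between 4 and 6 members of the list were called in each omission, with 4 without BMP4 array 2 or FGF2 array 2. CDH3 lost its call without any 1 array of either factor (differences of 1.43 to 1.89), PKP3 in all 7 omissions (1.08 to 1.77) and ITGB6, which no FGF2 array detected, without FGF2 array 2 or BMP4 array 2. CDH1, the cadherin that ES cells and epithelia both express, went the other way without a call (11.20 and 10.39 with BMP4, 11.71, 11.63 and 11.21 with FGF2, adjusted p = 0.454), and its groups nearly touched.

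WNT ligands, secreted signals that surface ectoderm and dorsal neural tube both use, were parted in 5 of 10 members. All 5 rose (WNT3, WNT3A, WNT4, WNT6 and WNT10A), none of the 10 fell, and the median was 1.23. WNT6, which surface ectoderm expresses, read 10.90 and 10.63 with BMP4 and was not detected with FGF2, in -GFs co-cultures or on any PA6 array (at least 19.6-fold higher, adjusted p = 0.000236), and its 2 other probes were detected on both BMP4 arrays and on no FGF2 array. WNT10A, a ligand of skin appendages, read 9.29 and 8.71 with BMP4 and was not detected with FGF2 (at least 5.75-fold, adjusted p = 0.00333). WNT4 read 9.96 and 9.98 with BMP4 and 6.83, 7.72 and 7.54 with FGF2 (difference 2.61 ± 0.34, adjusted p = 0.0364). WNT3A behaved otherwise. It read 9.58 and 10.34 with BMP4 and 9.28 and 8.97 in -GFs co-cultures, and 7.57, 6.25 and 7.74 with FGF2 (difference 2.77 ± 0.47, adjusted p = 0.0729), so that FGF2 was the group that lay apart. WNT6 and WNT10A held their calls in all 7 omissions. WNT4 lost it without FGF2 array 3 or BMP4 array 2 (differences of 2.34 to 2.79), WNT3A without FGF2 array 1 or 3 or either BMP4 array (2.30 to 3.15), and WNT3 in 6 of the 7 omissions (1.71 to 2.44). Without BMP4 array 2, 2 of the 10 were called.

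Of 28 WNT receptors, antagonists and feedback genes, 5 rose (FZD6, FZD10, KREMEN2, AXIN2 and NKD1) and none fell, with a median of 0.50. KREMEN2, a co-receptor of the DKK antagonists, read 11.13 and 11.19 with BMP4 and 6.45, 6.17 and 6.70 with FGF2. It was detected on 1 array with FGF2 and was not detected without factors. The difference was 4.72 ± 0.21 (adjusted p = 0.000236), fitted on levels mostly at background with FGF2. KREMEN2 held its call in all 7 omissions. AXIN2, the usual feedback target of beta-catenin, read 10.90 and 11.31 with BMP4 and 9.94, 10.02 and 10.03 with FGF2, with -GFs at 10.68 and 10.82 (difference 1.11 ± 0.18, adjusted p = 0.0707). NKD1, another feedback inhibitor, differed by 1.19 ± 0.19 (adjusted p = 0.0633) and lay likewise lowest with FGF2. AXIN2 lost the call without any 1 FGF2 array or without BMP4 array 2, NKD1 without any 1 array of either factor, FZD6 without BMP4 array 2 and FZD10 in 6 of the 7 omissions. Without BMP4 array 2, KREMEN2 alone of the 28 was called.

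HOX genes, which give axial position, had a higher mean with BMP4 in all 19 members (18 without BMP4 array 2 or FGF2 array 2), of which 5 rose (HOXA5, HOXC6, HOXC9, HOXD3 and HOXD4), with a median of 1.31. Without BMP4 array 2 the median was 0.66, and without BMP4 array 1 it was 1.85. The mean level of the 19 was 9.18 and 10.15 on the BMP4 arrays, 7.93 to 8.19 on the FGF2 arrays and 8.54 to 8.88 in -GFs co-cultures. In 12 of the 19 the groups did not overlap, against 17.6% of all members that were higher without overlap. The family had 2 patterns. HOXC6 read 10.95 and 12.33 with BMP4, 7.13, 7.42 and 6.54 with FGF2 and 6.89 and 6.56 in -GFs co-cultures (difference 4.61 ± 0.43, adjusted p = 0.0118), and HOXC9 read 9.45 and 11.63, against 6.70, 6.66 and 6.54 with FGF2 and no detection without factors (difference 3.90 ± 0.55, adjusted p = 0.0455). These genes of the C cluster were high with BMP4 alone. HOXD3 read 8.91 and 10.49 with BMP4 and 9.72 and 9.27 in -GFs co-cultures, but 6.57, 6.61 and 6.81 with FGF2 (difference 3.04 ± 0.43, adjusted p = 0.0455). HOXD4 read 9.29 and 11.15, 9.61 and 9.83, and 6.66, 6.30 and 8.00 in the same groups (difference 3.24 ± 0.64, adjusted p = 0.0967). In these genes of the D cluster FGF2 was the group that lay apart. HOXB2, a hindbrain gene, was highest in -GFs co-cultures (13.00 and 12.74), with 11.85 and 11.77 with BMP4 and 11.38, 10.77 and 11.07 with FGF2, and the difference between the factors was 0.74 ± 0.22 (adjusted p = 0.208). BMP4 array 2 was the higher of the pair in each of the 5 genes called.

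HOXC6 held its call in all 7 omissions. HOXC9 and HOXD3 lost theirs without any 1 FGF2 array (differences over the omissions of 2.82 to 4.99 and of 2.25 to 3.83), HOXA5 and HOXD4 in 6 of the 7 omissions (1.47 to 2.69 and 2.31 to 4.17). The number of HOX genes called was 1 without any 1 FGF2 array, 3 without either -GFs array or without BMP4 array 2, and 5 without BMP4 array 1.

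**Figure D3:**
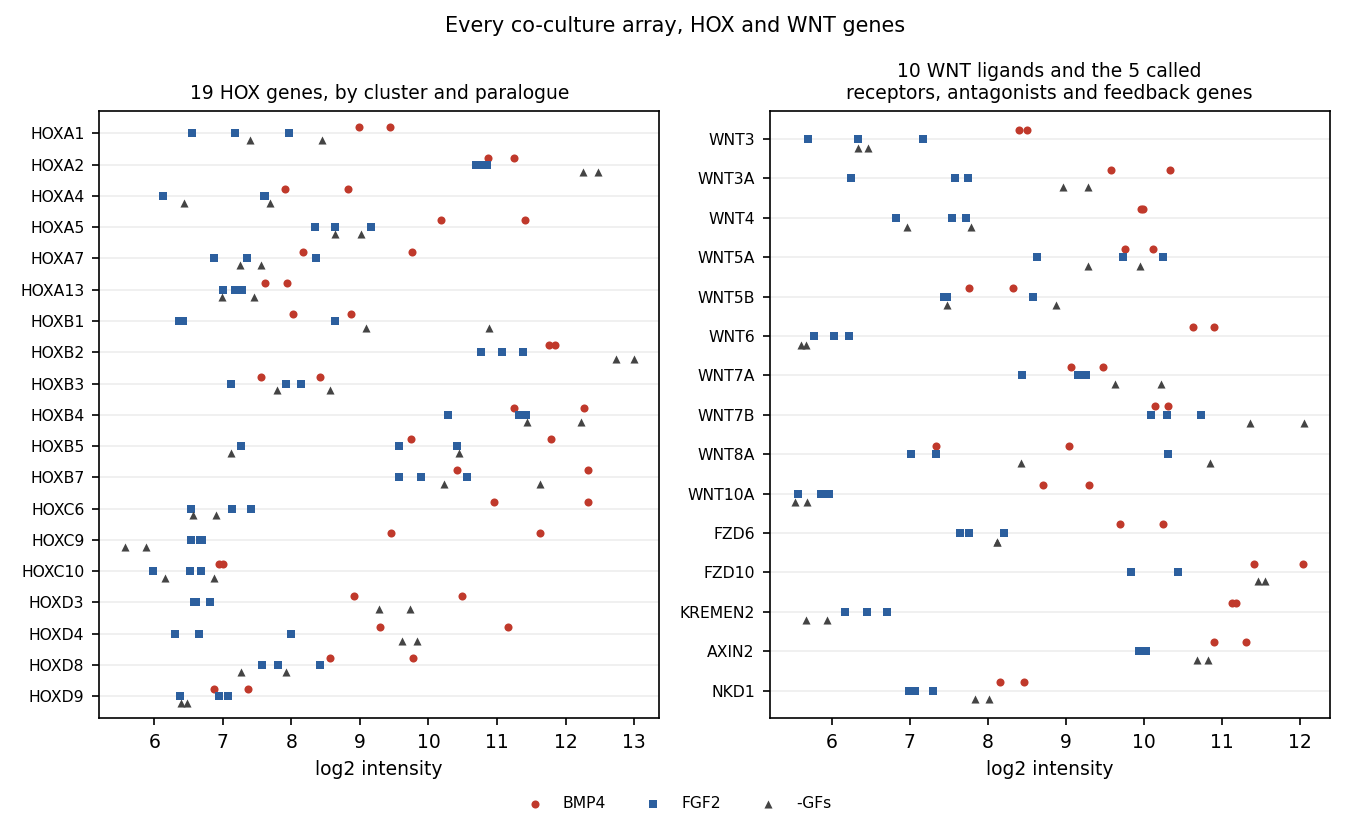
Log2 intensity on each of the 7 co-culture arrays (horizontal axis) of the 19 HOX genes that were members (left) and of 10 WNT ligands with the 5 called WNT receptors, antagonists and feedback genes (right), with BMP4 as circles, FGF2 as squares and -GFs as triangles. HOXC6, HOXC9, WNT6 and KREMEN2 are high with BMP4 alone, while HOXD3, HOXD4, WNT3A and AXIN2 are low with FGF2 alone.

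Direct targets of the BMP pathway were parted in part, and those of the FGF pathway gave 1 call. Of 8 BMP target genes, ID3 and GATA3 rose, none fell, and the median was 0.98. Of all genes tested 0.755% were called higher. In 75% of the 8 the groups did not overlap with BMP4 the higher, against 17.6% of all members. ID3, an inhibitor of differentiation induced by SMADs, read 10.14 and 10.48 with BMP4, 8.57, 9.01 and 9.38 with FGF2 and 9.03 and 8.93 without factors (difference 1.32 ± 0.26, adjusted p = 0.0967), and lost the call in each omission, with differences of 1.11 to 1.52. ID1 read 11.23 and 11.62 against 9.94, 10.15 and 11.05 (adjusted p = 0.255). MSX1, a BMP-induced homeobox gene of dorsal neural tube, read 8.55 and 10.47 with BMP4, 6.92, 6.85 and 7.67 with FGF2 and 9.17 and 8.73 without factors (difference 2.36 ± 0.54, adjusted p = 0.123). Of 14 BMP ligands, receptors and antagonists none was called, and the median was 0.22 (0.09 without FGF2 array 1). Of 13 FGF target genes FLRT3 rose (difference 1.10 ± 0.21, adjusted p = 0.0937, lost in each omission) and none fell, with a median of 0.12 (0.05 to 0.22 over the omissions) beside 0.04 over all genes. DUSP6, the ERK phosphatase, read 12.32 and 12.46 with BMP4 and 12.71, 11.93 and 12.10 with FGF2 (difference 0.15 ± 0.25), a range that holds the BMP4 values. Among 10 FGF ligands and receptors FGFR2 rose by 1.71 ± 0.27 (adjusted p = 0.0633) and FGF4 fell, and FGFR2 lost its call without any 1 array of either factor (differences of 1.47 to 1.83). Among 13 genes of the retinoid pathway STRA6, the retinol receptor, rose and CYP26B1, which degrades retinoic acid, fell, both lost with most omissions.

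Genes of neurons were among the leading falls. Of 24 members of the list of neuronal genes 22 had a lower mean with BMP4 and 3 fell (MAPT, GAD1 and SLC32A1), none rose, and the median was -0.81. The mean level of the 24 was 9.50 and 9.62 with BMP4, 10.23 to 10.73 with FGF2 and 10.40 and 11.43 in -GFs co-cultures. GAD1, which makes GABA, read 6.72 and 5.57 with BMP4, where 1 of 2 arrays detected it, and 8.55, 8.60 and 9.21 with FGF2 (difference -2.64 ± 0.42, adjusted p = 0.0633). SLC32A1, which loads GABA and glycine into vesicles, read 8.68 and 8.03 against 10.42, 11.19 and 11.05 (difference -2.53 ± 0.38, adjusted p = 0.0572). MAPT, the gene of tau and the locus of the EGFP reporter, read 8.78 and 8.11 with BMP4, 10.09, 11.37 and 11.07 with FGF2 and 10.37 and 11.49 without factors (difference -2.40 ± 0.47, adjusted p = 0.0967), and its 4 other probes were not detected with either factor, except 1 on 1 FGF2 array. For these genes the -GFs arrays lay with FGF2, and BMP4 was the group apart. The glutamate transporter SLC17A6 (difference -1.91 ± 0.43, adjusted p = 0.119), SYT1 (-1.52, adjusted p = 0.114) and DCX (-1.36, adjusted p = 0.131) had the same order and missed the threshold, and the neurofilament NEFM had the opposite sign (0.59, adjusted p = 0.304).

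TMEM130, a membrane protein, fell most, with 7.41 and 6.44 with BMP4 and 9.76, 10.68 and 10.69 with FGF2 (difference -3.45 ± 0.49, 10.9-fold, adjusted p = 0.0455). GPM6A, a neuronal membrane glycoprotein, read 6.80 and 7.42 with BMP4 and 9.66, 9.76 and 9.61 with FGF2 (difference -2.57 ± 0.28, adjusted p = 0.0201). MT3, the metallothionein of neural tissue, was not detected with BMP4 and read 8.41, 8.16 and 8.36 with FGF2 (at least 3.90-fold lower, adjusted p = 0.00425). GPM6A and MT3 held their calls in all 7 omissions. TMEM130 and SLC32A1 lost it without FGF2 array 2 or 3 or BMP4 array 2 (differences of -3.93 to -2.97 and of -2.86 to -2.21), GAD1 without any 1 FGF2 array or BMP4 array 2 (-3.21 to -2.07), and MAPT without any 1 array of either factor (-2.78 to -2.07). Without BMP4 array 2, FGF2 array 2 or FGF2 array 3 no member of the neuronal list was called, and without either -GFs array 6 were. A block for the column runs called 10 members of the neuronal list lower, the fit over all 16 arrays 8, and a block for the replicate numbers none. In these bulk samples fewer neurons and less neuronal RNA per cell cannot be told apart, and the same holds for every cell type named here.

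Neural progenitors and the dorsoventral axis gave fewer calls. Of 12 neural progenitor genes IRX5 rose by 1.01 (lost in each omission) and none fell, with a median of 0.27 (0.54 without BMP4 array 1). The dorsal neural list held 4 members, all higher with BMP4 (3 without FGF2 array 3 or BMP4 array 1) and none called, with OLIG3 at a difference of 2.22 ± 0.57 (adjusted p = 0.155). The ventral list held 5, all lower and none called, though 2 were higher without BMP4 array 2 or FGF2 array 2. Its median was -0.50, and -0.01 without BMP4 array 2. SHH, the ventral signal, read 9.21 and 6.98 with BMP4 against 8.93, 9.77 and 9.22 with FGF2, which overlap. Of 11 neural crest genes SNAI2 rose (10.48 and 10.77 with BMP4, 9.40, 9.30 and 9.30 with FGF2, adjusted p = 0.0377), and SOX10 was among those not called. SNAI2 lost the call without FGF2 array 2 or 3 or BMP4 array 2 (differences of 1.15 to 1.44).

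Pluripotency genes had lower means with BMP4 than with FGF2, and their median was above the -GFs level with both. Of 23 naive pluripotency genes 22 had a lower mean with BMP4 and 3 fell (ESRRB, FGF4 and TET1, listed as CXXC6), none rose, and the median was -1.02 (-0.62 without BMP4 array 2 and -1.43 without BMP4 array 1). The median difference of the list from -GFs was 1.20 with BMP4 and 2.39 with FGF2, in contrasts that share the -GFs arrays. ESRRB, an orphan nuclear receptor of the naive state, read 12.57 and 11.63 with BMP4, 13.56, 13.71 and 13.57 with FGF2 and 10.67 and 10.81 without factors (difference -1.51 ± 0.28, adjusted p = 0.0892), and was not detected in PA6 cells. FGF4, which ES cells secrete, read 7.65 and 6.87 with BMP4 and 8.72, 8.87 and 8.70 with FGF2 (difference -1.51 ± 0.28, adjusted p = 0.0892). POU5F1, the gene of OCT4, read 12.53 and 10.90 with BMP4, 13.31, 13.33 and 13.13 with FGF2 and 10.72 and 10.40 without factors, and NANOG read 13.58 and 12.99, 14.15, 14.28 and 13.97, and 12.10 and 11.86. Neither passed the test between the factors (adjusted p = 0.183 and 0.169), though their groups did not overlap. BMP4 array 1 was the higher in each of these 4 genes. A block for the column runs called 8 genes of the list lower, the fit over all 16 arrays 7, and a block for the replicate numbers none. ESRRB lost its call in 6 of the 7 omissions (differences of -1.98 to -1.05), FGF4 without any 1 FGF2 array or BMP4 array 2 (-1.90 to -1.11), and TET1 in all 7 (-1.89 to -1.26). Without BMP4 array 1, 4 genes of the list were called, without either -GFs array 1, and without BMP4 array 2 or any 1 FGF2 array none.

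GDF15 and SERPINA3N were higher with FGF2 than in either other group, and both were also called higher than -GFs with FGF2. GDF15, a stress-responsive member of the TGF-beta superfamily, read 9.03, 8.79 and 8.67 with FGF2, 6.74 and 6.50 with BMP4 and was not detected without factors (difference -2.21 ± 0.19, adjusted p = 0.00748), and it held its call in all 7 omissions. SERPINA3N, a secreted protease inhibitor, read 8.33, 9.72 and 9.49 with FGF2 and was not detected with BMP4 (at least 7.14-fold lower, adjusted p = 0.0915), with 6.12 and 7.90 in -GFs co-cultures. It lost the call against BMP4 without any 1 array of either factor. In PA6 cells alone the same fitted contrast of SERPINA3N was -2.54 ± 0.43 (SE). With detection on 3 of 9 arrays it rests in part on background and is no measured size. GDF15 was not detected on any PA6 array.

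Other germ layers gave few calls. None of 11 streak and mesoderm genes was called (median 0.31, and 0.10 without BMP4 array 1), and brachyury (T) read 9.66 and 7.16 with BMP4 against 7.77, 8.01 and 7.43 with FGF2, with a sign that turned without BMP4 array 1. None of 14 genes of extraembryonic endoderm, of 6 blood genes or of 5 muscle genes was called. Of 19 endothelial genes SOX17 rose (7.85 and 7.78 with BMP4, 6.33, 6.81 and 6.63 with FGF2, adjusted p = 0.0633), a factor that endoderm also expresses, and the median was 0.11 (-0.03 without FGF2 array 3 and 0.51 without BMP4 array 1). CDH5, TIE1 and KDR, which define endothelium, were not members. PECAM1, which ES cells express as well, read 9.90 and 8.83 with BMP4 and 10.49, 11.11 and 10.29 with FGF2 (adjusted p = 0.243). LAPTM5 of the blood list had the same order (10.92 and 8.88 against 11.57, 12.59 and 11.75, adjusted p = 0.186). SOX17 and CLDN6 were the calls among 6 genes of definitive endoderm. SOX17 lost its call without any 1 array of either factor (differences of 1.10 to 1.34), and CLDN6 in all 7 omissions.

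None of 13 stromal genes was called, with a median of 0.14 (0.02 without BMP4 array 2), and their mean level was 12.01 and 12.20 with BMP4, 11.53 to 12.09 with FGF2 and 11.50 and 11.98 without factors. None of 17 cell cycle genes (median -0.13, and -0.02 without BMP4 array 2), 8 housekeeping genes (0.08) or 7 adipocyte genes (0.70) was called, but without BMP4 array 1, 3 adipocyte genes were. MYL9 was the call among 8 smooth muscle genes (difference 1.14 ± 0.22, adjusted p = 0.0916, lost in each omission), and the lists of primed epiblast, germ cells, midbrain and hindbrain, TGF-beta and nodal signalling and stress, and the single members of the trophoblast and forebrain lists, had no call.

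**Figure D4:**
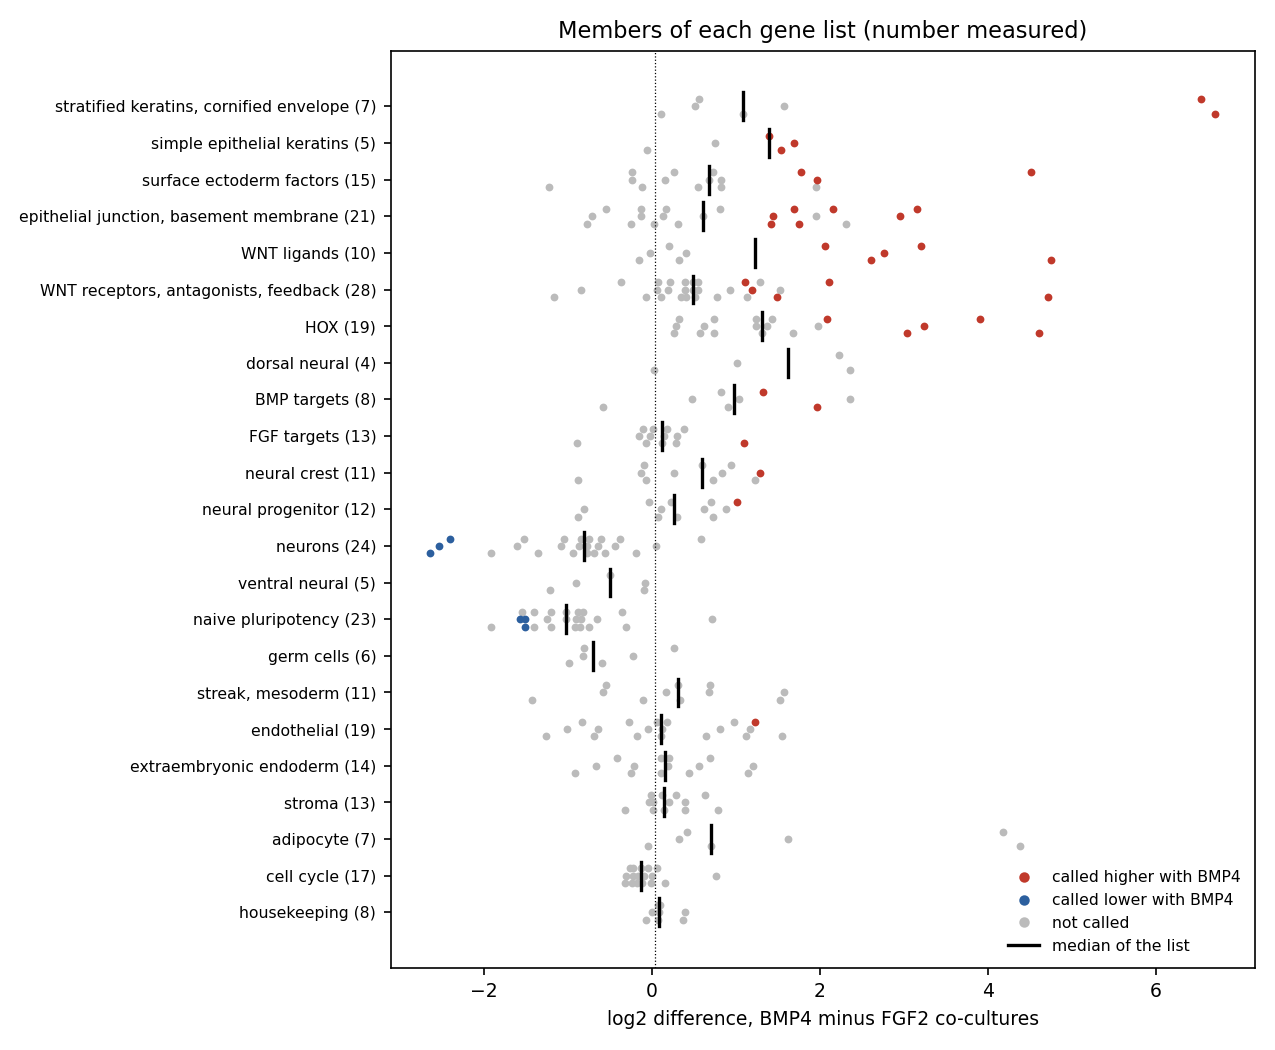
Differences between BMP4 and FGF2 co-cultures (horizontal axis, log2) of the members of 23 gene lists, each point a gene, red where called higher with BMP4, blue where called lower and grey where not called, with the median of each list as a bar and the median of all member genes as a dotted line. The keratin, WNT ligand and HOX lists reach differences above 3, the neuronal and pluripotency lists lie to the left, and the stromal, cell cycle and housekeeping lists sit around the dotted line.

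Set against the -GFs co-cultures, the called genes were of different sorts. With BMP4 2.28% of the genes tested were higher than -GFs and 1.47% lower, and with FGF2 5.07% were higher and 2.35% lower. Of the 112 genes higher with BMP4 than with FGF2, 69 were called higher than -GFs with BMP4 and not with FGF2, 14 were called lower than -GFs with FGF2 alone, 4 were higher with both, and 25 passed neither test. Of the 102 lower genes, 44 were called higher than -GFs with FGF2 alone, 34 were lower than -GFs with BMP4 alone, 9 were higher with both, and 15 passed neither test. KRT14, KRT15, GJB2, GJB6, TRP63, WNT6, HOXC6 and HOXC9 belonged to the first sort and HOXD3, HOXD4 and WNT3A to the second, while LAMA3, CDH3 and PKP3 were higher than -GFs with both. GAD1, SLC32A1 and MAPT were lowered with BMP4, GDF15 and FGF4 were raised with FGF2, and ESRRB was raised with both. These contrasts share the -GFs arrays with each other and the factor arrays with the main comparison.

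**Figure D5:**
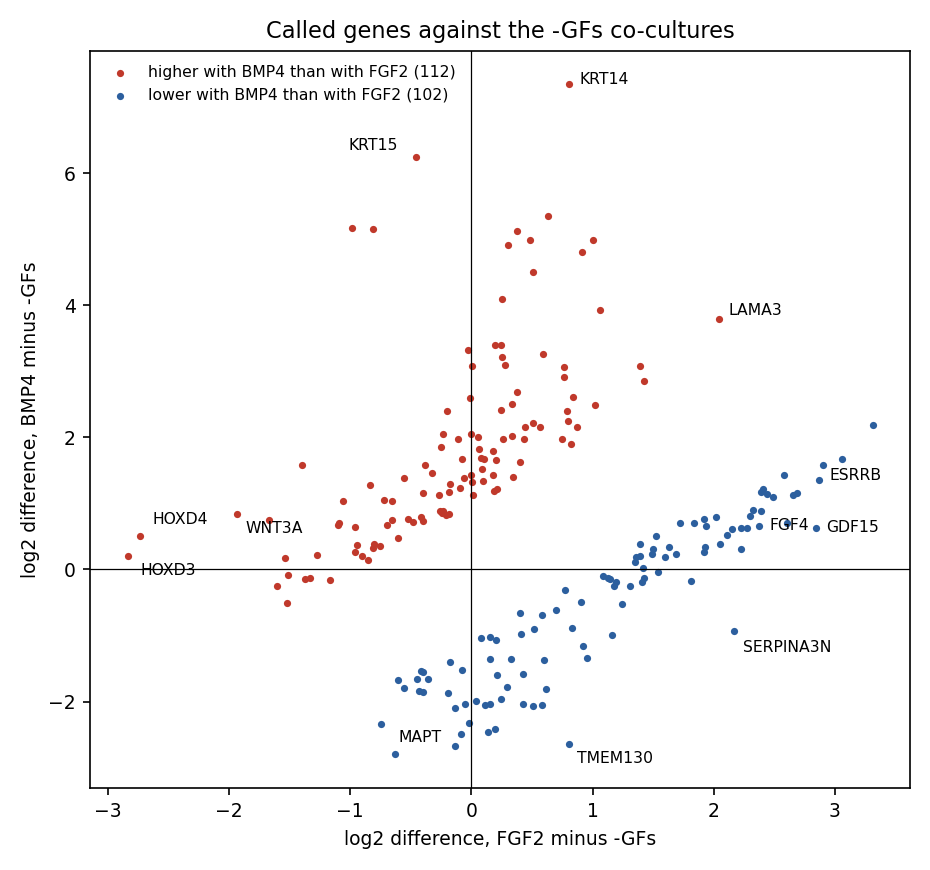
For the 214 called genes, the log2 difference of BMP4 from -GFs co-cultures (vertical axis) against that of FGF2 from -GFs co-cultures (horizontal axis), red where higher with BMP4 than with FGF2 and blue where lower. The axes share the -GFs arrays, so the slope of the cloud carries no meaning, while KRT14 and KRT15 lie far up, HOXD3 and HOXD4 to the left, GDF15 to the right and TMEM130 and MAPT low.

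The same contrast in stroma grown alone was compared with that in co-culture by the interaction of factor and culture over all 16 arrays. The difference between the factors itself differed between co-cultures and PA6 cells in 359 genes, positive in 197 (1.33% of the genes tested) and negative in 162 (1.09%). Of the genes higher with BMP4, 82 of 112 were among the former, and of the lower, 67 of 102 were among the latter, and these counts share the co-culture arrays. On all 9 PA6 arrays 44.6% of the higher and 58.8% of the lower genes were not detected, against 11.1% of all genes tested. Among the positive ones were GJB6, KRT15, KRT14, GJB2 and WNT6 (adjusted p of 0.000901, 3.25e-05, 0.00205, 3e-05 and 1.03e-05). KRT14, GJB2 and WNT6 were not detected on any PA6 array, KRT15 was detected on 1 of 9 and GJB6 on 2 of 9, so that their contrast in PA6 cells has no measured size. Among the negative ones were DMRTC2 and CLSTN3 (adjusted p = 0.089 and 0.0436), each detected on 4 of the 9 PA6 arrays. Their fitted contrast was 3.27 and 3.42 in PA6 cells alone and -1.50 and -1.17 in co-culture, so that the larger part of each interaction lay in PA6 cells. DMRTC2 was not detected in BMP4 co-cultures, and CLSTN3 read 8.93 and 8.80 there against 9.75, 10.03 and 10.32 with FGF2. TRP63 was detected on 8 of the 9 PA6 arrays, with a difference there of 0.54 ± 0.28 against 4.51 in co-culture.

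Among the genes that held the call in all 7 omissions, 5 outside the lists and the leading genes were singled out after their values were seen. IRX6 and IRX4, Iroquois homeobox genes, read 8.00 and 8.34 and 7.58 and 7.36 with BMP4 and were not detected with FGF2 or without factors (at least 3.23-fold and 1.99-fold higher, adjusted p = 0.00292 and 0.0118). ADH6B, an alcohol dehydrogenase, read 8.13 and 9.21 with BMP4 and was not detected with FGF2 (at least 4.59-fold, adjusted p = 0.0134). LYPD6B, a Ly6-domain protein, read 9.29 and 9.09 against 6.82, 5.89 and 6.39 (difference 2.82 ± 0.28, adjusted p = 0.0134). NT5E, the ectonucleotidase CD73, read 8.63 and 8.03 with BMP4, 6.10, 6.18 and 6.37 with FGF2 and 7.19 and 6.92 without factors (difference 2.11 ± 0.23, adjusted p = 0.0192). On FGF2 arrays 1 and 2 NT5E lay below the lowest detected signal (6.56 and 6.62). The -GFs level of NT5E lay between the factors, while the other 4 were near background without factors.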

How the data were processed

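RNA of 16 samples was hybridised to Illumina mouse bead arrays (1 colour). The authors deposited the mean signal intensity of each probe, not normalized, with a detection p-value, made with GenomeStudio 2011.01 per the submitters' processing notes. Here the background was modelled from the detection p-values, all 16 arrays were brought to the same quantiles, and log2 was taken with an offset of 16 (neqc, limma 3.58.1, R 4.3.3). Probes detected (p below 0.05) on every array of at least 1 of the 6 groups were retained (20880 of 45281), and the probe with the largest mean stood for its gene. Genes were tested with lmFit and eBayes over the 7 co-culture arrays, and the interaction over all 16. Called means an adjusted p below 0.1 and a log2 difference over 1. A group with no array that detected the probe gives a bound, taken from the lowest detected signal of each array.

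Named were the 15 largest rises and falls whose groups do not overlap, 5 interactions each way (1 is not reported here) and members of 36 gene lists. Members and lists were chosen with earlier results of these data known. Lists are described by counts and medians without a test, and a gene detected with 1 factor alone entered through that factor. The titles of the samples number the replicates and do not say whether each is a separate culture, and no 2 co-culture arrays held the same values. Gene names are those of the array design, of which 83.3% matched RefSeq. Deviations from the group means of equally numbered BMP4 and FGF2 arrays correlated at -0.04 and -0.20, and of arrays of the same column run at 0.20 and 0.16. With 2 BMP4 arrays the deviations of 1 mirror those of the other. The -0.20 and the 0.20 are therefore 1 value with its sign turned and no separate evidence. Tested on simulated data with 200 changed genes among 14829, the comparison recovered 19.5% at 2-fold, 80.5% at 4-fold and 94.5% at 8-fold. It also called 3, 9 and 27 unchanged genes. The simulated noise was independent for each gene and array and held no shift shared by the genes of an array. The number of arrays limits the precision. Alternatives covered normalization, background, offset, filter, probes, blocks, variance prior, arrays fitted, thresholds and each array left out.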

Additional observations from a re-analysis of the deposited data

Results flagged for a closer look

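A difference between groups was found where the contrast of BMP4 with FGF2 was set side by side in co-cultures and in PA6 cells alone, by the interaction term over all 16 arrays. It passed the thresholds in 359 genes. The fitted positive interactions of the named genes were 7.79 for GJB6, 7.14 for KRT15, 6.63 for KRT14, 6.16 for GJB2 and 4.60 for WNT6 (log2, adjusted p by limma of 0.000901, 3.25e-05, 0.00205, 3e-05 and 1.03e-05). The negative ones were -4.77 for DMRTC2, -4.59 for CLSTN3, -3.63 for SYN2 and -3.58 for TMEM130 (adjusted p of 0.089, 0.0436, 0.0877 and 0.00974). For DMRTC2 and CLSTN3 the fitted contrast was larger in PA6 cells (3.27 and 3.42) than in co-culture (-1.50 and -1.17). For SYN2 and TMEM130 it was larger in co-culture (-2.08 and -3.45) than in PA6 cells (1.55 and 0.13). These fitted values are no measured sizes where a group was at background: GJB6 and WNT6 were not detected with FGF2 in co-culture, KRT14, GJB2, WNT6 and TMEM130 were not detected on any PA6 array, and KRT15, GJB6, DMRTC2, CLSTN3 and SYN2 were detected on 1, 2, 4, 4 and 4 of the 9. In PA6 cells alone 61 genes were called between the factors, and 1226 had an unadjusted p below 0.05. No group held enough arrays for a test of single outlying arrays.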

How the results depend on the processing

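The number of genes called between BMP4 and FGF2 co-cultures was 214. It was 494 with median scaling, 574 with all 16 arrays in the fit, 128 with probes detected on all 5 arrays, 68 with no filter and 63 at an adjusted p below 0.05, and between 183 and 306 with the other 8 alternatives of processing, fit and threshold. With a replicate block for the numbers of the labels it was 11 (9 of the 214 among them), and with a block for the column runs 560 (202 of the 214 among them). The replicate numbers were not taken to pair the arrays, and the data do not settle whether they do. Deviations of equally numbered arrays correlated at -0.04 and -0.20 for BMP4 with FGF2 and at 0.28 and 0.07 for FGF2 with -GFs. For BMP4 with -GFs, groups of 2 arrays, both pairs give 1 value by construction, which was 0.10. The runs rest on the column order alone. Leaving out 1 array each gave 39 to 187 calls, with 39 without BMP4 replicate 2 and 63, 50 and 58 without FGF2 replicates 1, 2 and 3. The share of calls that were higher with BMP4 was 52.3%, and 63.6% with median scaling, 43.2% with all 16 arrays, 38.4% with the run block and 81.8% with the replicate block. It was 63.5%, 78% and 65.5% without FGF2 replicates 1, 2 and 3, and higher still without BMP4 replicate 2.

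The count of interactions was 359. It was 183 with median scaling, 180 at an adjusted p below 0.05, 440 with the replicate block and 443 with the run block. Leaving out 1 array each gave 131 to 441, with 131 and 201 without BMP4 replicate 2 and FGF2 replicate 2 of the co-cultures, 223 and 206 without FGF2 replicates 1 and 3 of PA6 cells, and 232 without BMP4 replicate 1 of PA6 cells. Among named genes the direction turned for TCFAP2C under median scaling (0.0597), for DUSP6 without FGF2 replicate 2 (-0.00868, with 0.38 as the highest of its omissions) and for T without BMP4 replicate 1 (-0.58, highest 1.93). None of these was called. The causes of these shifts were not tested.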
